A study of Mus musculus with 18 samples.

Results

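The Rab family of small GTPases was described here in Car6-/- and wild-type mice. Its members were taken by name, as every probe whose annotated gene symbol is Rab followed by digits and at most 1 letter. This gave 87 probes for 57 genes, out of 25697 probes on the array, of which 23978 named 16593 genes. The family was selected on the signal of Rab6b in earlier results of these data, where its probe stood lower in Car6-/- submandibular gland and stomach. The values of Rab6b in those 2 tissues are therefore given as a description, and nothing is read from its tests there.

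The study used female C57BL/6 mice aged 2 months. The 6 groups were Car6-/- and wild-type submandibular gland, Car6-/- and wild-type stomach, and Car6-/- and wild-type duodenum, with 3 arrays each. Car6 encodes carbonic anhydrase VI, a secreted enzyme of saliva, and the labels give neither the construction of the Car6-/- allele nor other alleles. The study text names 3 mice of each genotype, so arrays of a group were separate animals, and tissues may share animals. Total RNA of each whole tissue sample was hybridised to an Illumina bead array.

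Rab proteins are molecular switches. Bound to GTP and anchored by a prenyl tail, each marks the surface of particular vesicles or organelles and recruits effectors that move, tether and fuse them. In secretory epithelia, members such as Rab3d and Rab27b sit on secretory granules, Rab11a, Rab25 and Rab17 serve recycling to the apical surface, and Rab6a and its paralogue Rab6b act at the Golgi.

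Upstream sequences are shown for the genes the results turn on: the Rab6 pair, the granule Rabs Rab27a and Rab3d, and Rab17 and Rab15. Each is the 250 bases before the most upstream start in the RefSeq table, 5′ to 3′ on the gene's strand, build GRCm38.p6. Capitals mark matches on either strand to CAGCTG (an E-box), GGGCGG (the GC box), CCAAT (the CCAAT box), TATAAA (the TATA box) or CATATG (another E-box), and no base lay in 2 of these matches. The Rab6b window is chr9:103111824-103112073 (plus strand), the Rab6a window chr7:100607336-100607585 (plus), the Rab27a window chr9:73044560-73044809 (plus), the Rab3d window chr9:21918184-21918433 (minus), the Rab17 window chr1:90967668-90967917 (minus) and the Rab15 window chr12:76822525-76822774 (minus).
Rab6b: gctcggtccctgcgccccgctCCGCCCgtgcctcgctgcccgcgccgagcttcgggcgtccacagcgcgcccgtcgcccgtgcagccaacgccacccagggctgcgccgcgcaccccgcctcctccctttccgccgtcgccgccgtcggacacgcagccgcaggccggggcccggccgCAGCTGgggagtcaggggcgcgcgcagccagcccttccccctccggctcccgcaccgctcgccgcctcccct
Rab6a: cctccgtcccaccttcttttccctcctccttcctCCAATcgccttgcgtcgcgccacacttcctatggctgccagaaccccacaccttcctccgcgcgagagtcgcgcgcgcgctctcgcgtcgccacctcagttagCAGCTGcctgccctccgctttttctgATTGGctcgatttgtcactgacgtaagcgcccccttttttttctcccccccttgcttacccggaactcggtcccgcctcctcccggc
Rab27a: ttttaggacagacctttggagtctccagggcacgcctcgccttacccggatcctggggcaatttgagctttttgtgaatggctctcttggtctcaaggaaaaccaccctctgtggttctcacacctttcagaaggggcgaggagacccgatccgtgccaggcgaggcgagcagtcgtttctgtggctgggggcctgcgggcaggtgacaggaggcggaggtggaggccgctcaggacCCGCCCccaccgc
Rab3d: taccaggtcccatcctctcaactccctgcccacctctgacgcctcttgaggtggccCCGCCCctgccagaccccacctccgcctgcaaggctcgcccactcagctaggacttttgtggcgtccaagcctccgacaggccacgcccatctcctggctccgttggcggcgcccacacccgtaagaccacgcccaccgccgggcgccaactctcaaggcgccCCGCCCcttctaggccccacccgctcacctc
Rab17: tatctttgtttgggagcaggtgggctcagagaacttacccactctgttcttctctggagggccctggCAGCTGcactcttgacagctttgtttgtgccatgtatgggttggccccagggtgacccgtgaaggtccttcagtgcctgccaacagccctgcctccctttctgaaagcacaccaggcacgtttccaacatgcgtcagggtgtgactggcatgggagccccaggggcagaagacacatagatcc
Rab15: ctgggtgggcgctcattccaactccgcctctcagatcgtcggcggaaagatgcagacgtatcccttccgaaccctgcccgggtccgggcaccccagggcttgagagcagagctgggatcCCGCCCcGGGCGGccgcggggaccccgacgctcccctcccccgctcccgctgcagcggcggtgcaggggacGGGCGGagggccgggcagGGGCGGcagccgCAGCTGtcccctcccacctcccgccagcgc

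All 250 bases of the Rab6b and Rab17 windows, and 235 of the Rab15 window, lie inside the annotated span of their own gene, since the gene record extends further upstream. The Rab6b window had a GC content of 80.8% and held 1 CAGCTG and 1 GGGCGG. The Rab6a window had a GC content of 62.8% and held 1 CAGCTG and 2 CCAAT, and no GGGCGG. Among 32851 windows of this length, 13% held CAGCTG, 32.7% GGGCGG, 33.8% CCAAT, 12.4% TATAAA and 3.46% CATATG. The table held 59 windows for 47 of the 57 Rab genes. Of these 59 windows, 15.3% held CAGCTG, 66.1% GGGCGG, 39% CCAAT, 6.78% TATAAA and 1.69% CATATG. A match is a string of letters in the window and does not show that a factor binds there.

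A probe was called detected on an array where its deposited detection p was under 0.01. Between 7868 and 9613 probes were detected on submandibular arrays, 10214 to 11441 on stomach arrays and 9648 to 11808 on duodenum arrays. The median signal was 60.4 to 71.0, 78.9 to 83.5 and 75.5 to 87.1 in the same tissue order. Car6 had signals of 63.6, 55.1 and 51.0 on Car6-/- submandibular arrays, all undetected, against 114, 106 and 158 on wild-type arrays, all detected. It was undetected on every stomach and duodenum array, so it checks the genotype labels of the submandibular arrays only. Marker lists fitted the tissue labels in part. All 5 gastric chief and parietal cell genes were detected on every stomach array, and 7 to 9 of 9 salivary acinar and duct genes on every submandibular array. On every duodenum array 7 of 9 enterocyte genes were detected, and Fabp1 and Fabp2 were detected on none. All 11 pancreatic acinar genes were also detected on every duodenum array, with mean log2 levels of 14.66, 14.52 and 14.68 in Car6-/- and 14.76, 14.41 and 14.79 in wild type. In whole tissue, fewer cells of a type and less RNA per cell cannot be told apart.

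Most of the family was measurable in all 3 tissues. A gene was tested in a tissue where a probe was detected on at least 3 of its 6 arrays, which left 41 Rab genes in submandibular gland, 42 in stomach, 41 in duodenum and 40 in all 3. The 14 genes that were not kept over the 18 arrays were Rab2b, Rab3b, Rab3c, Rab9b, Rab20, Rab23, Rab30, Rab33a, Rab36, Rab37, Rab39, Rab40b, Rab42 and Rab44. For 11 of them no probe was detected on any array. Of the 87 probes, 41 were detected on all 18 arrays and 21 on 0. Whether probes of closely related Rabs also bind each other's transcripts was not tested.

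Rab6b (chr9:103111667-103185276) lay near the detection limit in every tissue. Its single probe had signals of 64.1, 54.1 and 60.9 on Car6-/- submandibular arrays, against 113, 91.1 and 105 on wild-type arrays. All 3 Car6-/- arrays were below all 3 wild-type arrays, and the probe was detected on wild-type arrays only. The fitted log2 difference was -1.44, which depends on the background correction. The bound from uncorrected signals was at least 1.30-fold lower in Car6-/-.

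In stomach, Rab6b had signals of 97.9, 102 and 91.4 on Car6-/- arrays, none detected, against 180, 168 and 137 on wild-type arrays, all detected. The groups again did not overlap. The fitted log2 difference was -1.23, and Rab6b was at least 1.61-fold lower in Car6-/- stomach.

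In duodenum, whose values played no part in the choice, the Rab6b signals were 85.1, 94.6 and 110 in Car6-/-, with 1 array detected, against 134, 120 and 143 in wild type, with 3 detected. The order was the same as in the other tissues, with no overlap. The log2 difference was -1.11 (SE 0.28, 95% interval -1.77 to -0.46, n = 3 each), and it did not pass the threshold (limma, adjusted p = 0.128 over all genes).

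Rab6a, the ubiquitous Golgi paralogue, showed no such pattern. Its brightest probe had signals of 199, 183 and 274 in Car6-/- submandibular gland, against 238, 170 and 210 in wild type. In stomach it had 494, 639 and 582 in Car6-/-, against 510, 433 and 247 in wild type. In duodenum it had 596, 799 and 1091 in Car6-/-, against 315, 774 and 692 in wild type. The genotypes overlapped in all 3 tissues, and none of the fitted differences passed the threshold.

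**Figure D1:**
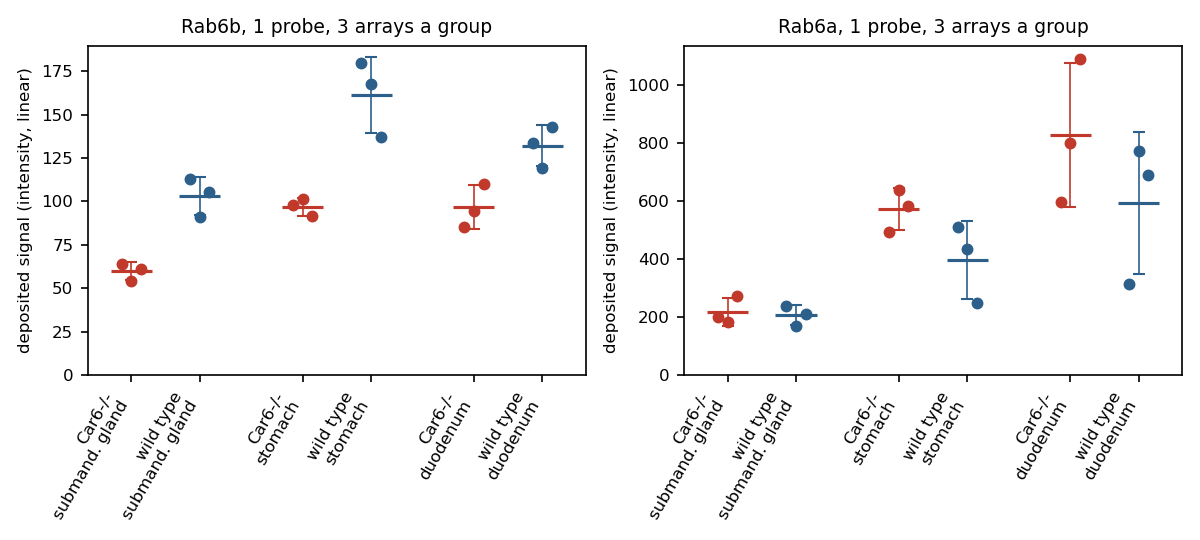
Deposited signal of the Rab6b probe and of the brightest Rab6a probe on each of the 18 arrays, by tissue and genotype; each point is 1 array, and bars show the mean and SD of 3. The Rab6b signals of Car6-/- arrays lie below those of wild-type arrays in every tissue, between 54.1 and 110 against 91.1 and 180, while the Rab6a signals overlap.

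The study compared Car6-/- with wild type in each tissue. In submandibular gland, which secretes into saliva, no Rab gene other than Rab6b passed the threshold. All 40 other Rab genes tested had a log2 difference under 0.5 in size, and the median half-width of their 95% intervals was 0.32. The median difference of the family was -0.03, against 0.01 for all genes tested. Only Rab6b was past the threshold, 1 of 41 Rab genes, against 0.099% of the 7074 genes tested. Since Rab6b led to the choice of the family, nothing is read from that count or from its changes. It was 0 without Car6-/- replicate 1 or 2, and without any of the 3 wild-type arrays, where Rab6b left the detection filter. The groups did not overlap for 9 of the 41, against 15.4% of all genes. Besides Rab6b, 6 of these were higher in Car6-/- (Rab1a, Rab2a, Rab3d, Rab4b, Rab27b and Rab40c) and 2 lower (Rab7b and Rab32).

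After Rab6b, the smallest p-values in submandibular gland belonged to Rab7b, Rab32, Rab3d and Rab3a. Rab7b, which acts between endosomes and the Golgi, had a log2 difference of -0.35 (SE 0.11, limma adjusted p = 0.499). Rab32, a Rab of lysosome-related organelles, had -0.37 (SE 0.13, adjusted p = 0.499). Rab3d, the zymogen granule Rab, had +0.35 (SE 0.13, adjusted p = 0.505), and Rab3a, known from synaptic vesicles, had +0.35 (SE 0.15, adjusted p = 0.520). None passed. The 4 granule Rabs tested (Rab3a, Rab3d, Rab27a and Rab27b) were all above wild type, with a median of 0.29, and their shared direction was not tested. The parotid marker list, which holds the targeted gene Car6, separated the arrays numbered 1 from the others in both genotypes. Its mean log2 level was 7.86, 9.82 and 9.78 in Car6-/- and 7.63, 10.65 and 9.77 in wild type. Salivary acinar and duct genes were also lowest on the arrays numbered 1. They averaged 11.30, 12.17 and 11.82 in Car6-/- and 10.14, 12.30 and 12.21 in wild type. So were the gastric chief and parietal cell genes, at 5.05 in Car6-/- and 4.60 in wild type. The part of these lists in the Rab values was not tested. Without the 2 arrays numbered 1, Rab3d stood at +0.35 and Rab3a at +0.20, and Rab6b was not kept by the filter.

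In stomach 21 of the 42 Rab genes were higher and 21 lower in Car6-/-, and none passed the threshold. Of the 41 genes other than Rab6b, 36 differed by under 0.5 on the log2 scale, and the median half-width of the intervals was 0.46. The family's median was 0.00, against -0.02 for all 8556 genes. In limma, 0 of 42 Rab genes and 0% of all genes passed. At an unadjusted p under 0.05 there were 1 Rab gene, Rab6b, and 248 genes in all, with 1 probe standing for each gene. With every kept probe tested, another probe of Rab5a (+0.59) and of Rab7 (+0.64) also had an unadjusted limma p under 0.05. The probes that stood for these genes gave +0.51 and -0.20. The groups did not overlap for 2 of the 42 (Rab6b and Rab13, both lower in Car6-/-), against 9.01% of all genes.

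The stomach differences with the smallest p-values shrank when 1 array was left out. These were, after Rab6b, Rab18, Rab1b, Rab6a and Rab17, with log2 differences of +0.41, +0.54, +0.66 and +0.34 (limma, adjusted p = 0.9999 each). The other kept probes in stomach gave -0.27 for Rab6a and +0.14 for Rab1b. Rab1b works between the endoplasmic reticulum and the Golgi, and Rab18 on the endoplasmic reticulum and lipid droplets. Without wild-type stomach replicate 3 the differences of Rab18, Rab1b, Rab6a and Rab17 became +0.23, +0.18, +0.19 and +0.17. On that array the mean log2 level of the 11 pancreatic acinar genes was 12.35, against 7.61 to 8.01 on the other 5 stomach arrays. The 10 skeletal muscle genes on the array averaged 9.52, 7.999 and 5.42 in Car6-/- stomach, against 5.27, 5.32 and 9.56 in wild type, and all 8 tested had a higher mean in Car6-/- (median log2 difference 1.11). The part of these markers in the Rab values was not tested.

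**Figure D2:**
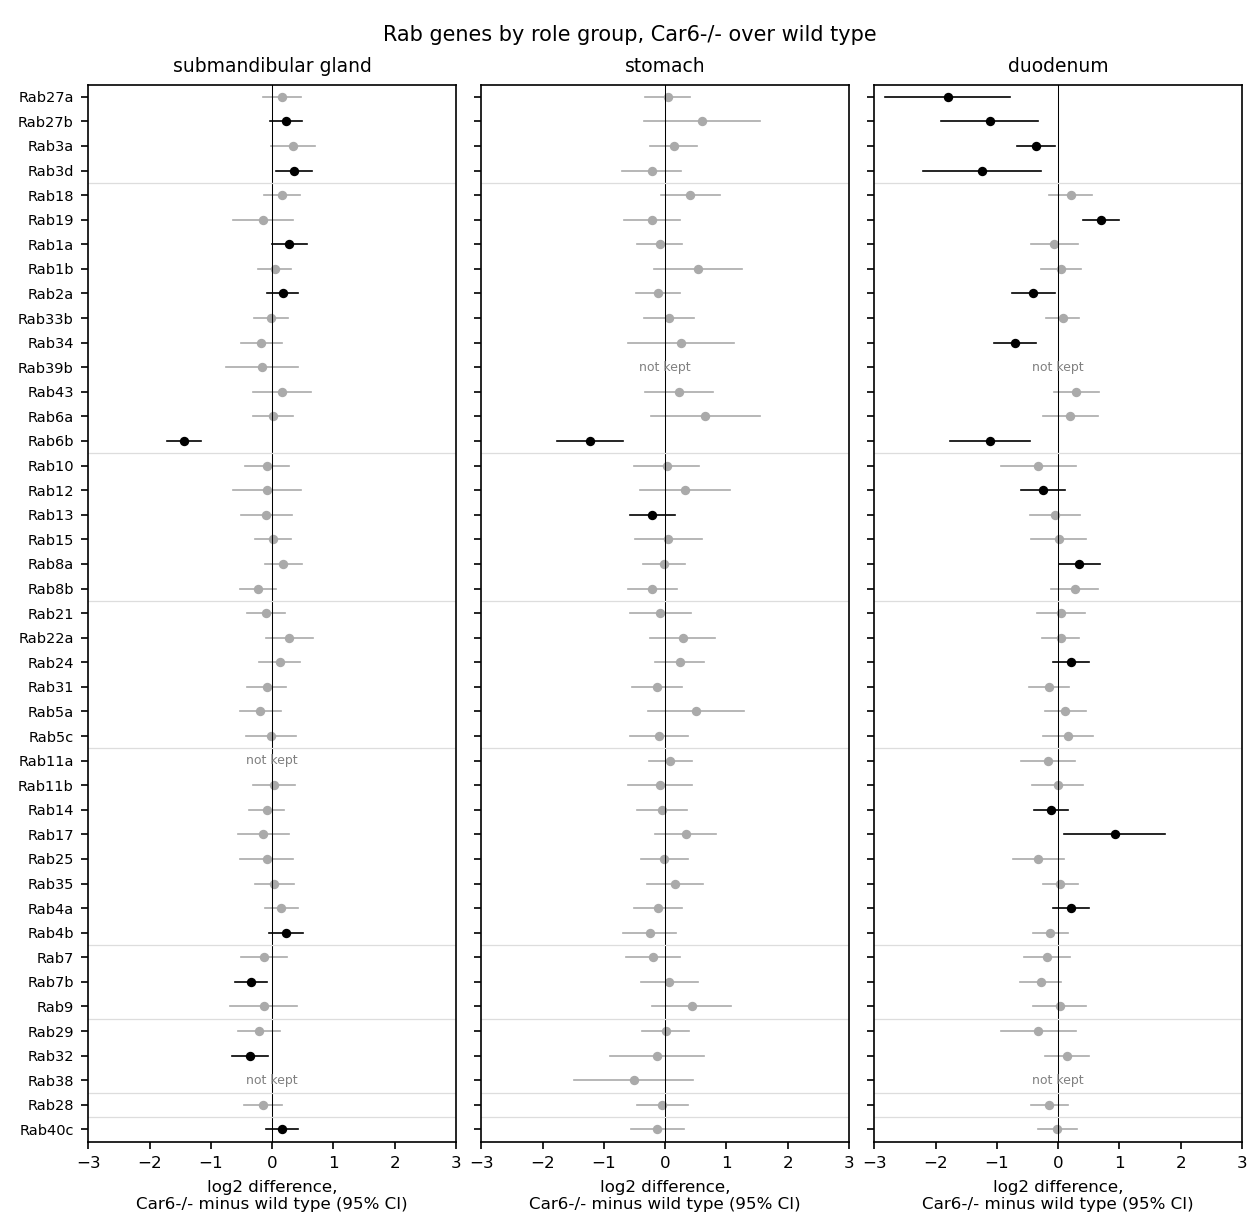
Log2 difference, Car6-/- over wild type, of each Rab gene in each tissue, with its 95% interval from the fit of 3 arrays against 3; black marks genes whose groups do not overlap. Outside Rab6b, all values in submandibular gland lie within 0.5 of 0, while in duodenum Rab27a (-1.80), Rab3d (-1.24) and Rab27b (-1.12) lie lowest.

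The duodenum held the widest spread of the family, led by the secretory granule Rabs. Rab27a docks granules at the plasma membrane, and Rab3d and Rab27b sit on granules of exocrine cells. All 4 granule Rabs tested had normalized values below every wild-type array on all Car6-/- arrays, with a median of -1.18, against -0.01 for all 41 Rab genes and 0.02 for all 8523 genes. None of them passed the threshold, and their shared direction was not tested. In limma, 0 of 41 Rab genes passed, against 0.0117% of all genes. At an unadjusted p under 0.05 there were 10 Rab genes, 3 higher and 7 lower, and 1943 genes in all. The groups did not overlap for 14 of 41, against 29.7% of all genes.

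Rab27a (chr9:73044810-73097623) had signals of 1361, 1003 and 678 in Car6-/- duodenum, against 2579, 2754 and 2379 in wild type. Every Car6-/- array was below every wild-type array. The log2 difference was -1.80 (SE 0.43, 95% interval -2.82 to -0.78, limma adjusted p = 0.128). In submandibular gland its signals were 1107, 1018 and 1628 in Car6-/-, against 1101, 731 and 1472 in wild type, and in stomach 2397, 2376 and 2628, against 1952, 2295 and 3440. Those groups overlapped in both tissues.

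Rab3d (chr9:21907491-21918199) had signals of 2663, 2605 and 1533 in Car6-/- duodenum, against 4252, 4344 and 3592 in wild type, again with no overlap. Its log2 difference was -1.24 (SE 0.41, limma adjusted p = 0.157). Rab27b had signals of 132, 119 and 98.9 in Car6-/-, against 141, 239 and 145 in wild type, and a log2 difference of -1.12 (SE 0.34, limma adjusted p = 0.146). Rab3a differed by -0.37 (SE 0.13, adjusted p = 0.170), and its deposited signals overlapped, at 201 to 244 in Car6-/- and 183 to 259 in wild type.

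Beside the 4 granule Rabs and Rab6b, the duodenal genes with an unadjusted p under 0.05 were Rab19, Rab17 and Rab8a, higher in Car6-/-, and Rab34 and Rab2a, lower. Rab19 had signals of 214, 267 and 322 in Car6-/-, against 117, 182 and 179 in wild type, so that all Car6-/- arrays were higher. Its log2 difference was +0.70 (SE 0.13, limma adjusted p = 0.115). Rab34, a Golgi-associated Rab, had 144, 175 and 175 in Car6-/-, against 155, 255 and 200 in wild type. Those signals overlapped before normalization and did not overlap after it, with a log2 difference of -0.70 (SE 0.14, adjusted p = 0.122) and -0.70 for its second probe too. Rab17, a Rab of polarised epithelia, differed by +0.92 (SE 0.35, adjusted p = 0.188), and its second probe by +1.30. Rab8a, of polarised exocytosis, differed by +0.34 (SE 0.14, adjusted p = 0.209), and Rab2a, of traffic between the endoplasmic reticulum and the Golgi, by -0.40 (SE 0.15, adjusted p = 0.176).

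The number of duodenal calls changed with the fit. With all 18 arrays in a single fit 3 Rab genes passed (Rab27a, Rab3d and Rab6b), against 6.23% of all genes. With array weights 5 passed (Rab19, Rab27a, Rab27b, Rab34 and Rab6b), against 9.95% of all genes. Signs of these genes were the same in both. Car6-/- replicate 3 stood apart in duodenum. Its mean log2 level of the 8 gastric mucous genes, a list added after the data were seen that holds Muc6 and Tff2, both also made by the Brunner's glands of the duodenum, was 8.32, with 6 of 8 detected. It was 12.61 and 12.23 on the other Car6-/- arrays (7 of 8 detected on each), against 13.15, 13.11 and 12.91 in wild type (8 of 8 each). The 9 enterocyte genes averaged 10.36, 10.65 and 10.77 in Car6-/- and 9.16, 9.93 and 10.20 in wild type. The 5 gastric chief and parietal cell genes averaged 6.87, 6.32 and 5.53 in Car6-/-, against 9.405, 7.14 and 6.82 in wild type, and all 5 were detected on wild-type replicate 1. All 8 smooth muscle genes had a lower mean in Car6-/- (median log2 difference -0.55), and 5 of 6 macrophage and lymphocyte genes a higher one (median 0.74). The part of these markers in the Rab values was not tested. Without Car6-/- replicate 3, Rab27a stood at -1.37 (limma adjusted p = 0.210) and Rab27b at -0.82 (adjusted p = 0.285). Over all single arrays left out, Rab27a ranged from -2.24 to -1.37.

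**Figure D3:**
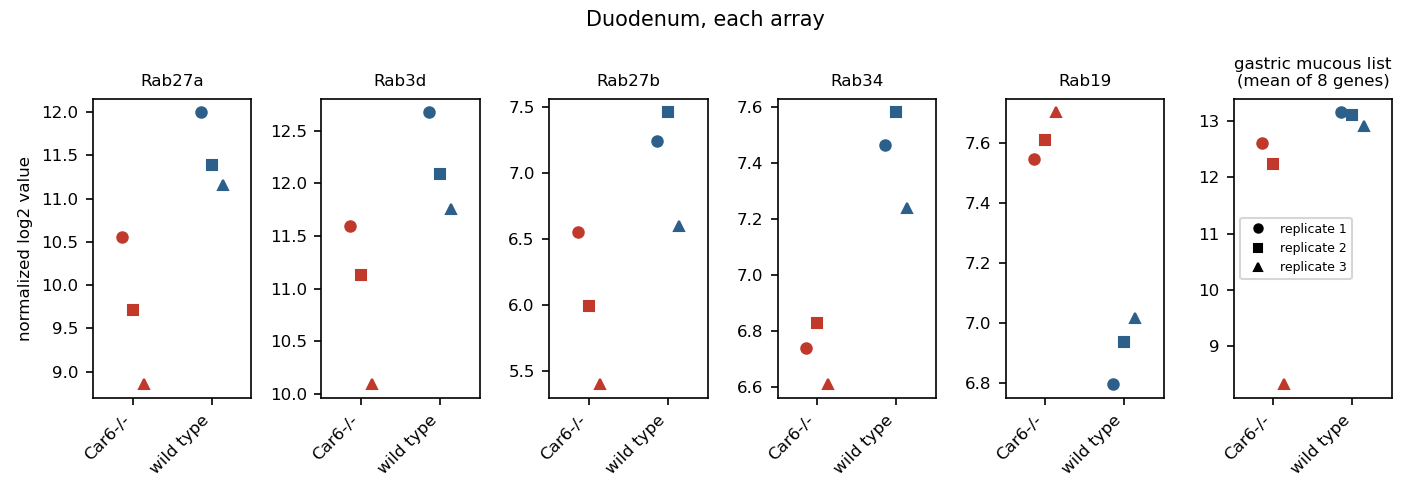
Normalized log2 value on each duodenum array of Rab27a, Rab3d, Rab27b, Rab34 and Rab19, and the mean of the gastric mucous list; symbols mark the replicate number. Car6-/- replicate 3 is lowest for Rab27a, Rab3d and Rab27b and for the mucous list (8.32), and the genotypes do not overlap in any panel.

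No Rab gene had a genotype effect that differed between tissues past the threshold. The interaction tests called 0 of 43 Rab genes in each pair of tissues, against 0.062% of all genes for submandibular gland over stomach, 0.207% for submandibular gland over duodenum and 0.0207% for stomach over duodenum. At an unadjusted p under 0.05 there were 3, 9 and 7 Rab genes in the same order, against 447, 1446 and 1240 of all 9682 genes. Rab6b is among the 3 and among the 9. Nothing is read from its part in them, since its values led to the choice of the family. The effect on Rab27a was higher by 1.95 in submandibular gland than in duodenum (SE 0.43, limma adjusted p = 0.065), and by 1.85 in stomach than in duodenum (SE 0.43, adjusted p = 0.133). For Rab3d the first of these was 1.57 (SE 0.43, adjusted p = 0.102). For Rab27b the second was 1.64 (SE 0.48, adjusted p = 0.153). Without Car6-/- duodenum replicate 1, Rab27a passed in both (2.38 and 2.28) and Rab3d in the first (1.91). Without wild-type duodenum replicate 3 the same genes passed (2.13 and 2.03 for Rab27a, 1.78 for Rab3d). Between submandibular gland and stomach the smallest adjusted p outside Rab6b was 0.983, for Rab4b (0.52) and Rab7b (-0.46). Of the 40 Rab genes tested in all 3 tissues, 8 were higher and 7 lower in Car6-/- in every tissue. Rab6b, on whose values in 2 of the tissues the family was chosen, is among the 7. The share over all genes was not computed, so nothing is read from these counts.

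The machinery that Rabs work with was looked at through 7 lists. These held the factors that prenylate Rabs and extract them from membranes, the effectors or regulators of Rab6, Rab3 and Rab27, Rab5 and Rab7, Rab11, and Rab8 and Rab10, and the SNAREs of exocytosis. In each tissue, 0 members of any list passed the threshold between genotypes. Of all genes, 0.099% passed in submandibular gland, 0% in stomach and 0.0117% in duodenum, so counts of 0 are not particular to these lists. The numbers tested were 6, 5 and 6 prenylation factors in submandibular gland, stomach and duodenum. They were 8, 9 and 9 for Rab6, 12, 13 and 12 for Rab3 and Rab27, 15, 18 and 17 for Rab5 and Rab7, 3, 6 and 6 for Rab11, 2, 3 and 4 for Rab8 and Rab10, and 9, 10 and 10 for the SNAREs.

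More Rab genes passed between tissues than between genotypes. Rab17 and Rab15 were higher in wild-type submandibular gland than in stomach and duodenum, in the fit and in every deposited signal. In the fit, Rab31, Rab11a, Rab5c, Rab35, Rab25, Rab11b, Rab4b and Rab32 were lower there, relative to all genes, than in both other tissues. For these comparisons the 18 arrays were quantile-normalized together, which kept 43 Rab genes and 9682 genes in all. In wild type, submandibular gland over stomach, 12 of 43 Rab genes were higher, against 24.1% of all genes, and 10 lower, against 26.7%. For submandibular gland over duodenum 14 were higher, against 28.4% of all genes, and 9 lower, against 26.7%. For stomach over duodenum 6 were higher, against 17.4%, and 6 lower, against 13.6%. The medians of the family were 0.08, 0.13 and 0.04 in that order, against -0.02, 0.04 and 0.05 for all genes.

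The split into higher and lower genes depended on the scaling. Submandibular arrays were dimmer, and scaling each array by its median in place of quantiles moved the median of all genes to -0.62 for submandibular gland over stomach, -0.46 over duodenum, and 0.14 for stomach over duodenum. Under median scaling 5 Rab genes were higher and 22 lower in submandibular gland than in stomach, 6 higher and 18 lower than in duodenum, and 7 higher and 4 lower in stomach than in duodenum. Of all 9682 genes, 8.04% were then higher and 51.6% lower in submandibular gland than in stomach, 10% higher and 43.4% lower than in duodenum, and 17.9% higher and 10.1% lower in stomach than in duodenum. All 10 and all 9 Rab genes called lower in submandibular gland were also lower in every deposited signal and passed under median scaling. Submandibular arrays were dimmer for genes in general, so both measures lean toward lower values. They cannot decide whether those genes were lower in absolute terms. Of the 12 called higher than in stomach, deposited signals were higher without overlap for Rab17 and Rab15 only, overlapped for 7, and were lower for Rab7b, Rab9 and Rab13. Of the 14 called higher than in duodenum they were higher for Rab15 and Rab17 only, overlapped for 10, and were lower for Rab28 and Rab6b. Under median scaling Rab7b, Rab9, Rab13 and Rab34 changed sign over stomach, and Rab33b and Rab6b over duodenum. A positive difference for genes other than Rab17 and Rab15 is thus relative to all genes on the array. So is a negative difference in submandibular gland.

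**Figure D4:**
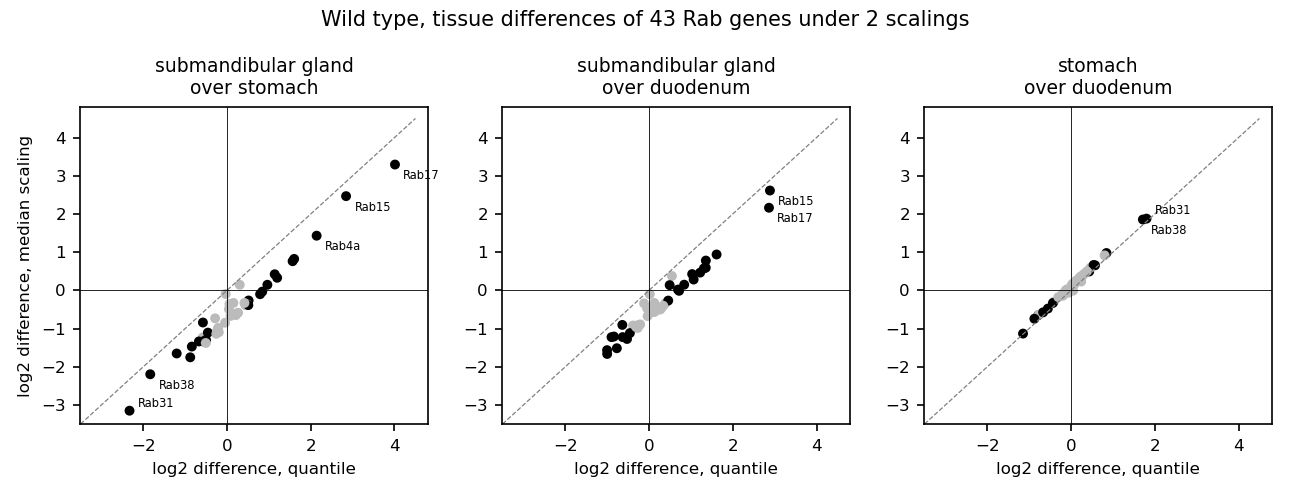
Log2 difference between wild-type tissues of 43 Rab genes under quantile normalization (horizontal axis) and median scaling (vertical axis); black points passed the threshold under quantile normalization, and the dashed line marks equal values. Points of the panels with submandibular gland lie below the line; Rab17 and Rab15 stay high and Rab31 and Rab38 stay low in the stomach panel.

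Among the recycling Rabs, Rab17 (chr1:90958133-90969673) takes part in apical recycling and transcytosis of epithelia. It had signals of 290, 300 and 395 in wild-type submandibular gland, against 93.7, 103 and 87.0 in stomach. It had 90.6, 200 and 205 in wild-type duodenum. The log2 difference was 4.01 over stomach (SE 0.27, limma adjusted p = 3.25e-09) and 2.87 over duodenum (SE 0.27, adjusted p = 1.78e-07). In Car6-/- tissues these were 3.58 and 1.84. Those come from other arrays, which were normalized and fitted together with the wild-type arrays and share their estimate of the spread. Its second probe gave 3.40 and 2.76 in wild type. Rab4a, which serves fast recycling, had 620, 463 and 819 in submandibular gland, against 386, 354 and 556 in stomach, an overlap. It differed by 2.14 over stomach and by 1.36 over duodenum, and by 1.43 and 0.78 under median scaling, all past the threshold.

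Of the other recycling Rabs, all 6 were lower in submandibular gland than in stomach and 5 lower than in duodenum, Rab14 being the exception. Rab11a, which directs recycling endosomes to the apical membrane, had 74.6, 70.1 and 74.2 in wild-type submandibular gland, none detected, against 177, 164 and 207 in stomach and 108, 178 and 159 in duodenum. It was at least 1.26-fold lower than in stomach and at least 1.11-fold lower than in duodenum. Rab25, its epithelial relative, had 461, 459 and 501 in submandibular gland, against 1755, 1687 and 2752 in stomach, with no overlap. Its log2 difference was -0.67 over stomach and -0.63 over duodenum. Rab35 had 271, 216 and 375 in submandibular gland, against 868, 1451 and 1590 in duodenum, and differed by -0.9999 (SE 0.15, limma adjusted p = 3.96e-05). Of 8 recycling Rabs tested, 2 were thus higher and 6 lower than in stomach, beside 24.1% and 26.7% of all genes, and 2 higher and 5 lower than in duodenum, beside 28.4% and 26.7%.

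Among the endosomal Rabs, Rab31 (chr17:65651726-65772752), which works between the trans-Golgi network and endosomes, was brightest in stomach. Its signals were 150, 134 and 167 in wild-type submandibular gland, against 1484, 1520 and 1759 in stomach. Duodenum lay between them with 327, 561 and 450. The log2 difference was -2.33 for submandibular gland over stomach (SE 0.15, limma adjusted p = 1.73e-09), -0.53 over duodenum, and 1.80 for stomach over duodenum (SE 0.15, adjusted p = 1.06e-07). In Car6-/- tissues the values were -2.29, -0.47 and 1.82. Rab5c, an early endosome Rab, had 542, 361 and 723 in submandibular gland, against 1580, 2701 and 3571 in duodenum, and differed by -1.002 (SE 0.19, adjusted p = 0.000394). Its relative Rab5a differed the other way, by 1.14 over stomach and 1.03 over duodenum, and did not pass under median scaling (0.42 and 0.43). Of the late endosome Rabs, Rab7b was higher relative to all genes by 1.35 and Rab9 by 1.07 over duodenum. Rab9 did not pass there under median scaling (0.28). Over stomach Rab7b and Rab9 changed sign under median scaling (-0.38 and -0.10). The second kept probe of Rab9 gave 0.12 over duodenum and 0.18 over stomach. Rab7 was not called (0.13 over duodenum and 0.04 over stomach), and its probes disagreed. Its other probes gave 0.60 and 1.02 over duodenum, and 0.91 and 1.17 over stomach.

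Among Rabs of lysosome-related organelles, Rab38 (chr7:88430273-88491572), known from melanosomes and lung lamellar bodies, was brightest in stomach. Its signals were 77.0, 68.1 and 66.7 in wild-type submandibular gland, none detected, against 241, 136 and 406 in stomach. It had 90.1, 101 and 93.4 in duodenum, 2 of 3 detected. It was at least 1.60-fold lower in submandibular gland than in stomach, and 1.72 higher on the log2 scale in stomach than in duodenum (SE 0.30, limma adjusted p = 0.000343). In Car6-/- duodenum it was detected on 0 of 3 arrays, and it was at least 1.61-fold higher in Car6-/- stomach. The 11 squamous epithelium genes averaged 9.85, 10.56 and 7.92 in Car6-/- stomach. In wild-type stomach they averaged 10.30, 8.17 and 10.09. Rab38 was lowest on the same array of each genotype, and the part of these genes in its values was not tested. Within duodenum, Rab38 had 71.9, 77.8 and 71.5 in Car6-/-, against 90.1, 101 and 93.4 in wild type, without overlap. It was not tested in the fit of duodenum arrays only, where too few arrays were detected. In the single fit of all 18 arrays it differed by -0.76 (SE 0.30, limma adjusted p = 0.146), which did not pass. Rab32 was lower in submandibular gland by 0.88 relative to stomach and by 0.77 relative to duodenum, on the log2 scale.

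Rab15 (chr12:76797960-76822759), grouped here with the exocytic Rabs and first studied on endosomes of neurons, was brightest in submandibular gland. It had signals of 2279, 1514 and 2638 in wild-type submandibular gland, against 913, 626 and 789 in stomach. It had 402, 1004 and 752 in duodenum. The log2 difference was 2.84 over stomach (SE 0.20, limma adjusted p = 4.64e-09) and 2.89 over duodenum (SE 0.20, adjusted p = 3.06e-09). In Car6-/- tissues it was 2.81 and 2.90. Rab8a, which brings vesicles to the apical membrane, was lower in submandibular gland than in duodenum by 0.84 on the log2 scale.

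Of the 4 granule Rabs, only Rab3a passed in a wild-type tissue comparison. It differed by 1.20 over stomach and 1.31 over duodenum, with deposited signals of 210, 164 and 303 in submandibular gland, against 251, 273 and 286 in stomach, which overlapped. Under median scaling it stood at 0.33 over stomach, which did not pass, and 0.57 over duodenum. In Car6-/- tissues all 4 were higher in submandibular gland than in duodenum (median 1.96) and in stomach than in duodenum (median 1.45), against 31.2% and 25.7% of all genes called higher. Those medians hold the low Car6-/- duodenum values given above, and no interaction passed. Of 11 Golgi Rabs tested, 3 passed as higher in submandibular gland than in stomach and 5 as higher than in duodenum. By the probe that stood for each gene, 0 passed as lower in either. Of all genes, 24.1% and 28.4% were called higher. The 5 include Rab33b and Rab6b, which changed sign under median scaling. Golgi Rabs called higher by at least 1 on the log2 scale were Rab1a (1.57 over stomach), Rab39b (1.60 and 1.61) and Rab34. Rab34 stood at 1.22 over duodenum, and at 0.47 under median scaling, which did not pass. Rab39b was detected on all 3 wild-type submandibular arrays and on 1 of 3 in stomach and in duodenum. None of the deposited signals of Rab1a, Rab39b and Rab34 were higher without overlap. Rab6a could not be placed, since its probes disagreed: over stomach they gave 0.50, -0.09 and 2.38. Those of Rab1b disagreed too. The probe that stood for it gave 0.44 over stomach and was not called. With every kept probe tested, its second probe gave -0.78 (limma adjusted p = 0.00224).

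**Figure D5:**
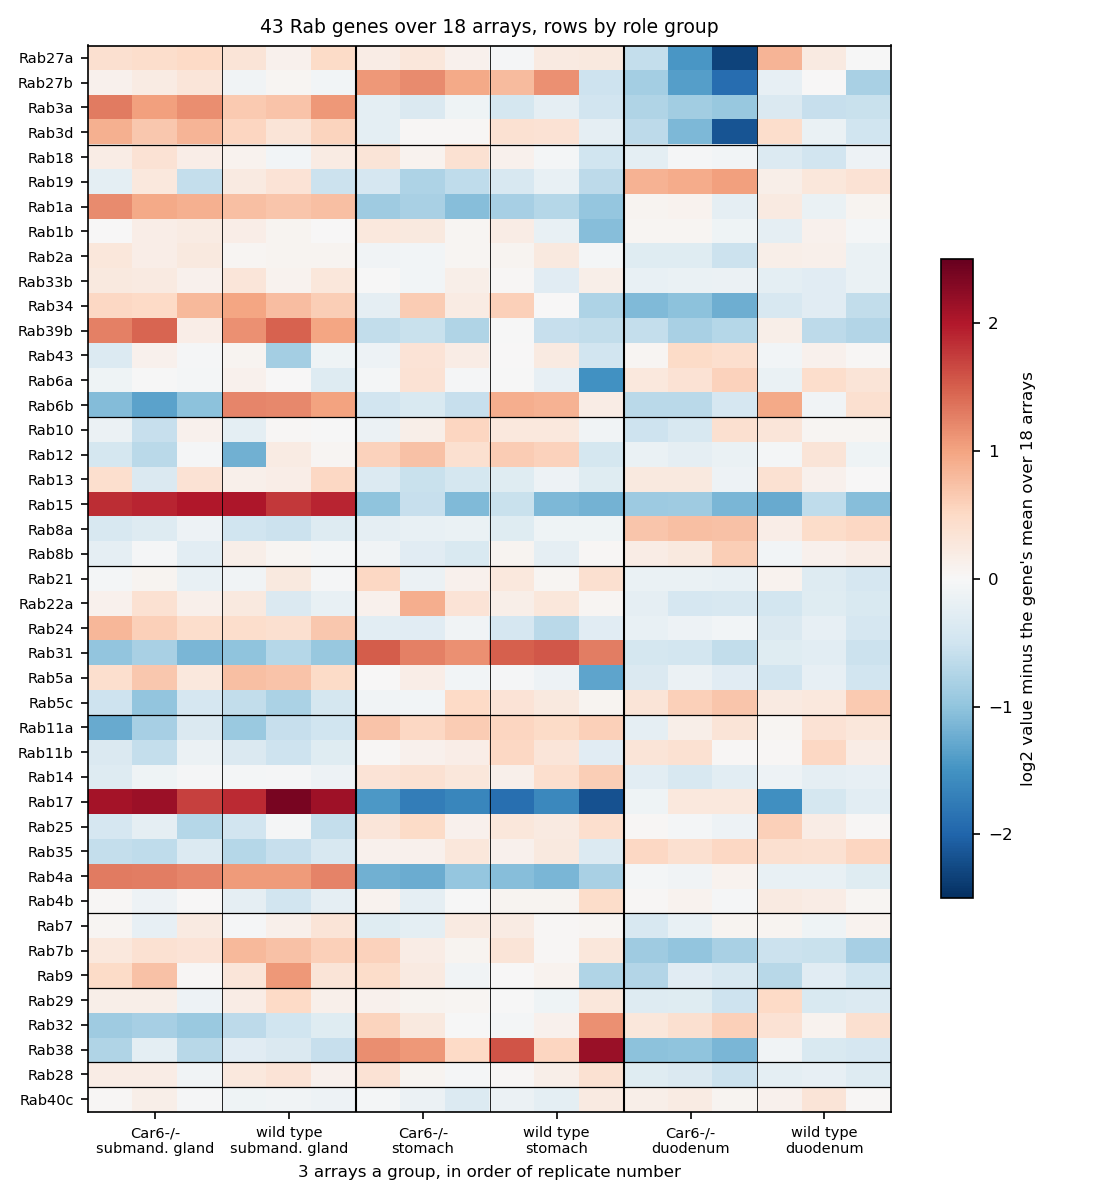
Normalized log2 value of 43 Rab genes (rows, ordered by role) on 18 arrays (columns), minus the gene's mean over the 18. Rab17 and Rab15 are high in submandibular gland, Rab31 and Rab38 in stomach, and Rab27a and Rab3d are lowest on Car6-/- duodenum replicate 3.

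Of the 22 Rab genes called in wild type for submandibular gland over stomach, 16 (72.7%) passed in the same direction in Car6-/-, against 80% of all genes called. For submandibular gland over duodenum it was 20 of 23 (87%), against 83.7%, and for stomach over duodenum 11 of 12 (91.7%), against 88.3%. In Car6-/- tissues, 20 of 43 Rab genes passed in the first comparison, against 48.8% of all genes. In the second 28 passed, against 58.8%, and in the third 21, against 46.6%. The wild-type calls absent from Car6-/- in the first comparison were Rab4b, Rab5a, Rab7b, Rab9, Rab11b and Rab34, and none of these had an interaction past the threshold. In the second they were Rab4b, Rab25 and Rab6b, and in the third Rab35, again with no interaction past it. In Car6-/- tissues Rab4b stood at 0.02 over stomach and -0.06 over duodenum. Rab6b stood the other way in Car6-/-, at -0.56 over duodenum.

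The partners of Rab27 and Rab3 also differed between wild-type tissues. Of 16 tested, 7 were higher and 4 lower in submandibular gland than in stomach (median 0.33, against -0.02 for all genes), and 9 higher and 2 lower than in duodenum (median 0.55, against 0.04). Of all genes 24.1% were higher and 26.7% lower in the first comparison, and 28.4% and 26.7% in the second. Sytl2, a Rab27 effector that tethers granules, was detected on none of the submandibular arrays and on all 3 of stomach and of duodenum. Myrip, which links Rab27 to myosin, was higher in submandibular gland by 2.41 over stomach and by 2.23 over duodenum. Sytl4, the effector granuphilin, was lower in submandibular gland than in stomach by 1.87 on the log2 scale, and higher in stomach than in duodenum by 1.63. Of 10 exocytic SNARE genes, 3 were higher and 3 lower in submandibular gland in each comparison, and 0 passed between stomach and duodenum, where 17.4% of all genes were higher and 13.6% lower. Of 6 prenylation factors, 4 were higher and 0 lower in submandibular gland than in each other tissue, and 1 was higher in stomach than in duodenum. The prenylation counts stand beside the same shares of all genes. None of these lists was tested as a list, and the counts were made under quantile normalization only.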

How the data were processed

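The authors deposited, per the file headers, a signal intensity and a detection p-value for each of 25697 probes on each of 18 arrays, with no normalization. A log2 value per probe and array was also deposited, with its software not given in the sources used here, and was used as an alternative. The lowest correlation of an array with its own deposited log2 column was 0.995. The members and lists were chosen with earlier results of these data known. Probes were named from the platform annotation, with gene records of GRCm38.p6.

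The function neqc of limma 3.58.1 (R 4.3.3, offset 16) corrected the background and equalized the quantiles of the intensities, within each tissue for the genotype comparisons and over 18 arrays for the tissue and interaction comparisons. A probe was kept with a detection p under 0.01 on at least 3 arrays of the fit. The kept probe with the highest mean stood for its gene. Tests were the moderated tests of limma (lmFit, eBayes), two-sided, adjusted by Benjamini-Hochberg over all genes, with a threshold of 0.05. Arrays were treated as independent, although tissues may share mice. Differences are log2 of the group named first over the other. For a group with no array detected, a bound was taken from quantile-normalized signals without background correction, where a value under the dimmest detected probe of the same array was set to that probe's value. With 3 arrays a group, the number of arrays limits the precision.

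Named by rule were, for genotype, Rab6b, every Rab gene past the threshold and the 5 with the smallest unadjusted p, and, for tissue, every Rab gene past the threshold in wild type with a log2 difference of at least 1 in size. Other genes were named after their values were seen, as examples of their role. In submandibular gland, deviations of same-numbered Car6-/- and wild-type arrays from their group means correlated at 0.266, 0.520 and 0.235. In stomach they correlated at -0.311, -0.258 and -0.295, and in duodenum at 0.485, 0.087 and 0.440. The labels name no pairing or batch behind the numbers, and the main genotype tests did not use them. Within every group, the array numbered 3 had the highest 99th percentile of signal relative to its median signal. In Car6-/- duodenum this ratio was 74.1, 88.0 and 111 on arrays numbered 1, 2 and 3. In wild-type duodenum it was 59.9, 78.7 and 90.9. The part of this difference in the Rab values was not tested. Alternatives were other scalings, background corrections, filters, array weights, a replicate block and arrays left out. Scripts were tested on simulated data.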

Additional observations from a re-analysis of the deposited data

How the results depend on the processing

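In submandibular gland the count of Rab genes past the genotype threshold was 1, Rab6b, on whose values the family was chosen, so it is a description only. It was 0 under median scaling, with detection required on all 6 arrays, and without both arrays numbered 1, an alternative chosen after seeing the data; with single arrays left out it lay between 0 and 1. In duodenum the count, 0, was 6 with a replicate block (Rab27a, Rab3d, Rab27b, Rab19, Rab34 and Rab6b, against 11.4% of all genes), 3 with all 18 arrays in a single fit and 5 with array weights, and 0 with any array left out; the cause was not tested. The replicate block, paired by number, left 1 call in submandibular gland and 0 in stomach, and moved no tissue or interaction count by over 1.5 times. In duodenum the same-numbered arrays correlated at 0.485, 0.087 and 0.440, and the labels give no more than a shared number.

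Requiring at least 2-fold as well gave 10 Rab genes in wild type and 10 in Car6-/- for submandibular gland over stomach, 10 and 15 for submandibular gland over duodenum, and 3 and 10 for stomach over duodenum, by construction fewer. With single arrays left out, the wild-type counts ranged from 19 to 22, 21 to 25 and 8 to 11, and the Car6-/- counts from 16 to 19, 24 to 26 and 17 to 20, in that order. Interaction counts ranged from 0 to 0, 0 to 2 and 0 to 1. No gene named by rule changed sign, followed by the same probe in the comparison it was named for, under any of the alternatives run. Between wild-type tissues, Rab5a and Rab3a over stomach, and Rab9, Rab5a and Rab34 over duodenum, lost their call under median scaling. Rab39b was detected on 7 of 18 arrays, Rab38 (its brighter probe) on 8, Rab6b on 10 and Rab11a on 12. Without background correction Rab39b stood at 0.90 over stomach and over duodenum, and Rab38 at -1.10 over stomach.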
